A study of Brassica juncea with 21 samples.

Results

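In Brassica juncea, an oilseed mustard, the lateral floral nectaries were set against the median ones before either releases nectar. The comparison used the 3 lateral and 3 median pre-secretory libraries of the 21 RNA sequencing libraries in the study. Both groups came from unmodified plants, about 40 days old, grown at 21 °C with 16 h of light, and were taken 24 h before anthesis. Each RNA sample pooled about 100 hand-dissected nectaries, at most 4 per flower, and replicates came from separate sets of plants. The labels call the second type medial and the study's design text calls it median, the word used here. The lateral and median nectaries at full anthesis (secretory) and 12 h later (post-secretory), and leaf, served as reference points. The deposited table gives 1 whole-number value per group and transcript, so the 3 libraries of a group could not be seen apart. Each column except the lateral post-secretory one carries a normalisation mark. Of 14398 transcripts, each named by its Brassica rapa match, 14390 passed a low filter (1 or more in 3 or more of the 7 groups) and 8 did not.

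Flowers of the mustard family carry nectaries at the stamen bases. The lateral ones sit at the short stamens, release most of the nectar in many species and are supplied by phloem, while the median ones sit by the long stamens and usually release little. In Arabidopsis the YABBY factor CRABS CLAW (CRC) is needed to form both types, the transporter SWEET9 exports sucrose from nectary cells, and the cell wall invertase CWINV4 splits that sucrose outside them. The comparison addresses how transcript levels of the nectary types differ before secretion starts.

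With 1 value per group there is no replicate spread and no test, and "higher" and "lower" mean that the deposited values of the 2 groups differed by at least 2-fold after adding 1 to each. Differences are given as log2(lateral + 1) minus log2(median + 1). The 2 columns had totals of 7868559 in lateral against 8390186 in median nectaries, with medians of 182 and 175. The read depth per library is unknown, so no interval can be given, and values near 0 carry an unknown counting error.

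CRC and some other nectary genes were high in both columns and level between them. CRC (LOC103831319) had 63385 in lateral nectaries, against 58387 in median ones, and only 92 in leaf. The 2 copies of MYB21, a floral MYB factor that acts with jasmonate in stamens and nectaries, were listed at 13269 and 5160 in lateral nectaries and at 11536 and 3450 in median nectaries. JMT, the methyltransferase that forms methyl jasmonate, had its main copy (LOC103872765) at 41896 in lateral nectaries and 35658 in median ones. These 4 transcripts differed by 0.58 or less on the log2 scale, within 2-fold.

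Across all transcripts 1140 (7.92%) were higher in lateral than in median nectaries and 636 (4.42%) were lower, and 12614 lay within 2-fold. The median difference was 0, and the 5th and 95th percentiles were −0.93 and 1.42. At 4-fold the counts were 433 (3.01%) and 167 (1.16%). Calls were most frequent among low values. Of the 601 transcripts with under 10 in the higher group, 25.6% were higher and 14.8% lower in lateral nectaries, against 5.82% and 3.25% of the 7684 transcripts at 100 to 1000. Among all, 61 transcripts were listed at 0 in lateral nectaries and above 0 in median ones, up to 331, and 98 were the other way round, up to 78.

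**Figure D1:**
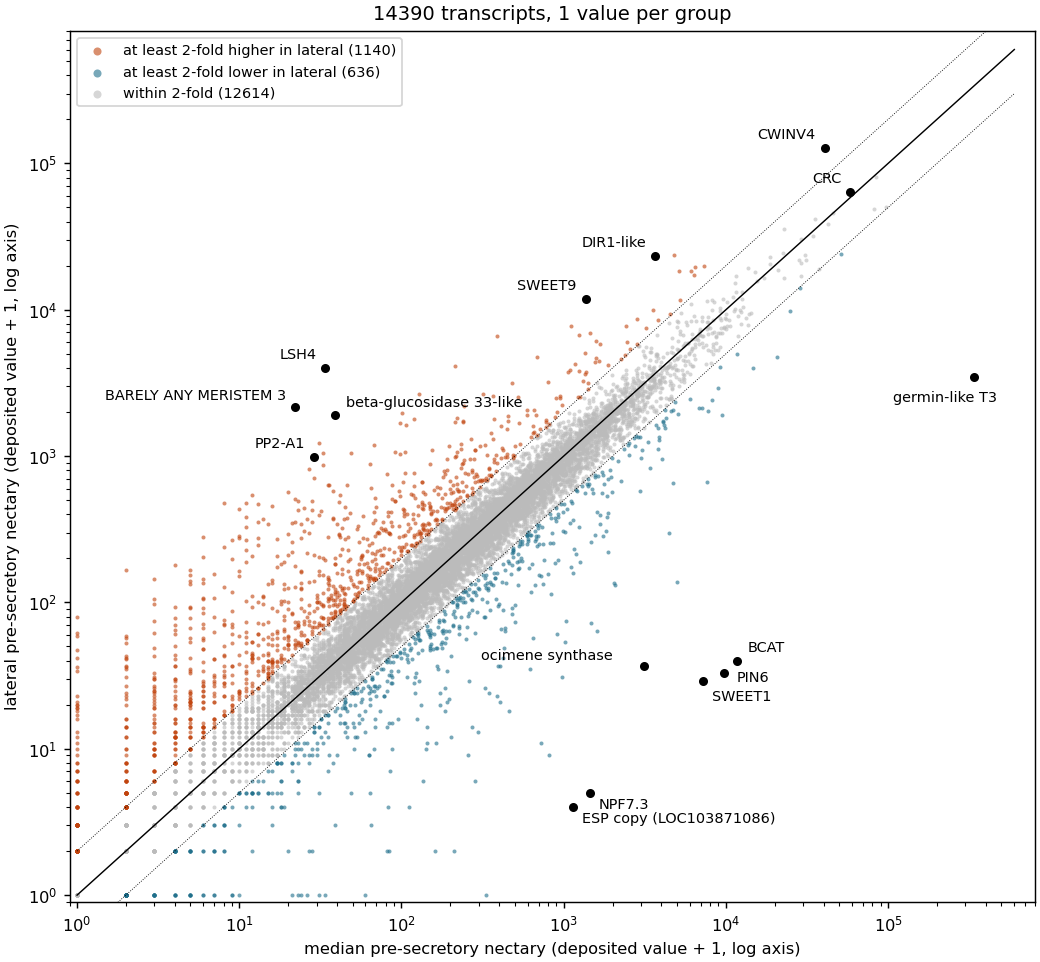
Deposited value plus 1 of each of the 14390 transcripts in lateral (vertical, log axis) against median (horizontal, log axis) pre-secretory nectaries, 1 value per group. The solid line marks equal values and the dotted lines 2-fold. CRC lies on the line, LSH4 far above it, and PIN6, SWEET1 and the germin-like T3 transcript far below it.

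The plot of lateral against median values marks some of the transcripts farthest from the line. Several copies of 1 gene are counted as 1 in the order of differences given here, and the most abundant copy is named. On the lateral side the largest difference was in LSH4 (LOC103828755), whose Arabidopsis match is a nuclear protein of organ boundaries. It stood at 3976 in lateral against 33 in median nectaries, and at 1 in leaf, which is 117-fold higher in lateral nectaries (log2 6.87). A transcript matched to the receptor kinase BARELY ANY MERISTEM 3 (LOC103861192), which in Arabidopsis acts in developing phloem, was listed at 2156 in lateral nectaries, against 21 in median ones (log2 6.62). Its other copy (LOC103834155) had 179 in lateral nectaries and 3 in median ones.

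Other kinases lay on the same side. LOC103848387, named HSL1 and matched to the Arabidopsis receptor kinase known as XIP1 or CEPR1, stood at 433 in lateral against 9 in median nectaries. LOC103846870, a leucine-rich repeat receptor kinase, was listed at 328 in lateral nectaries, against 10 in median ones. TWIN SISTER of FT-like (LOC103831057), a relative of the flowering signal FT, had 1237 in lateral nectaries and 30 in median ones and was listed at 0 in leaf. FAF2-like (LOC103836628), of a family that in Arabidopsis limits shoot meristem size, stood at 202 in lateral against 5 in median nectaries. RADIALIS-like 3 (LOC103867386), a small MYB-type protein, was at 144 in lateral nectaries, against 2 in median ones.

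Enzymes were also among the 15 genes with the largest differences on the lateral side. A putative gamma-glutamylcyclotransferase (LOC103870881) was listed at 166 in lateral nectaries, against 1 in median ones (log2 6.38). Beta-glucosidase 33-like (LOC103867598) was at 1917 in lateral nectaries and 38 in median ones (log2 5.62). Its other copy (LOC103865232) was listed at 474 in lateral against 7 in median nectaries, so both copies differed the same way. The aminotransferase TAT4 (LOC103841973) was listed at 814 in lateral nectaries, against 26 in median ones, and the cystine lyase CORI3-like transcript (LOC103834290), of a jasmonate- and coronatine-responsive family in Arabidopsis, at 154 in lateral nectaries and 4 in median ones. The remaining ones were a histidine-rich glycoprotein-like transcript (LOC103831211), a proline-rich receptor-like kinase (LOC103866290), calmodulin-like 1 (LOC103847998) and the phloem lectin PP2-A1 described with the phloem markers, with log2 differences from 4.98 to 5.14.

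On the median side the largest difference was in a cysteine-rich transmembrane protein (LOC103834697), listed at 0 in lateral against 331 in median nectaries. PIN6 (LOC103832163), an auxin efflux carrier that in Arabidopsis is linked to nectar production, stood at 32 in lateral against 9790 in median nectaries, 297-fold lower in lateral nectaries (log2 −8.21). SWEET1 (LOC103835747), a glucose transporter in Arabidopsis, was listed at 28 in lateral nectaries, against 7257 in median ones (log2 −7.97). A putative branched-chain-amino-acid aminotransferase (LOC103832898) had 39 in lateral nectaries and 11727 in median ones (log2 −8.20). For all 3 the leaf value, between 19 and 692, was far below that of median nectaries.

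The germin-like protein T3 transcript (LOC103830683), a cupin-fold protein, held the highest value of the median column, 339516, which was 4.05% of its total, and stood at 3472 in lateral nectaries (log2 −6.61). The highest value of the lateral column, 1.62% of its total, was CWINV4. NPF7.3, a nitrate transporter that in Arabidopsis roots loads the xylem, had both copies on the median side. LOC103840161 was listed at 4 in lateral against 1450 in median nectaries, and LOC103874747 at 8 in lateral nectaries, against 809 in median ones. NPF5.8-like (LOC103846448) of the same transporter family was listed at 1 in lateral nectaries and 211 in median ones.

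A copy of the epithiospecifier protein ESP (LOC103871086), which steers glucosinolate breakdown toward nitriles, stood at 3 in lateral against 1135 in median nectaries (log2 −8.15). The other ESP copy (LOC103871085) was abundant in both, at 9382 in lateral nectaries, against 13910 in median ones (log2 −0.57), so the copies of this gene did not share the difference. Ocimene synthase (LOC103869246), which makes a floral volatile, was listed at 36 in lateral nectaries and 3121 in median ones (log2 −6.40). The others of the 15 were 2 GDSL lipases (LOC103843994 and LOC103834690), the dehydrogenase SDR2a (LOC103860723), the carboxypeptidase SCPL20 (LOC103863659), a 21 kDa protein-like transcript (LOC103827854) and a MYB57-like transcript (LOC103858909), with log2 differences from −6.33 to −4.84.

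**Figure D2:**
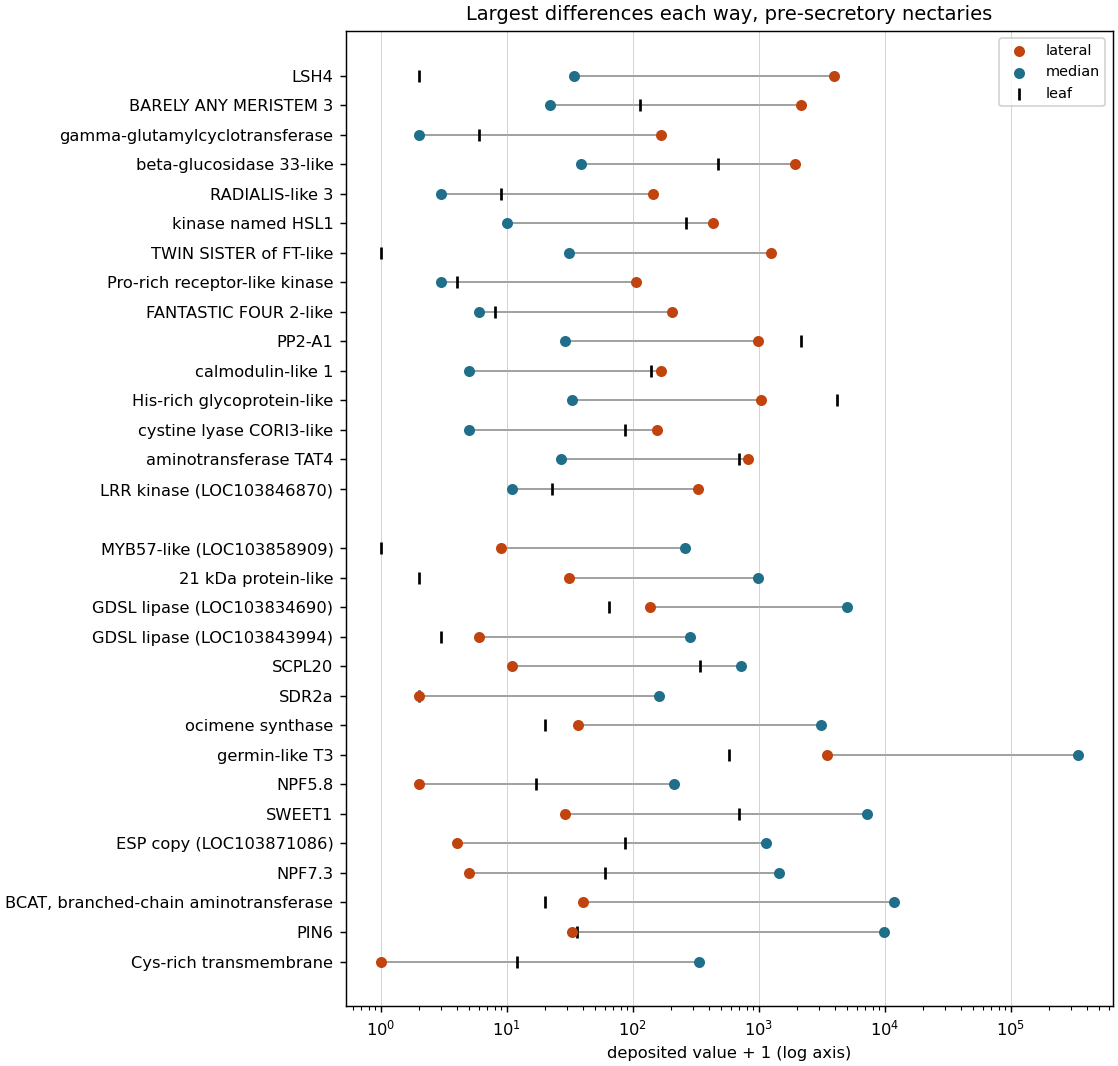
Deposited value plus 1 (log axis) of the 15 genes with the largest difference each way that had at least 100 in the higher group and a product name or match, shown by their most abundant differing copy, in lateral and median pre-secretory nectaries and in leaf, 1 value per group. The upper block holds transcripts higher in lateral nectaries, led by LSH4, and the lower block those lower in lateral nectaries, ending with PIN6 and the cysteine-rich transmembrane protein.

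The matched Arabidopsis genes have positions in the deposited table, with no genome build named and no exons or untranslated regions given. LSH4 matched AT3G23290 on chromosome 3 from 8326958 to 8328010, forward strand. SWEET1 matched AT1G21460 on chromosome 1 from 7512252 to 7513281, the aminotransferase AT1G50090 on chromosome 1 from 18554641 to 18556794, and germin-like T3 AT1G74820 on chromosome 1 from 28111882 to 28112565, each on the reverse strand. Positions in Brassica juncea were not analysed here.

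Of the 20 transcripts listed for nectary formation and nectar, 4 were higher in lateral nectaries, 4 were lower and 12 lay within 2-fold, with a median difference of 0.20. The share was 20% each way, against 7.92% of all transcripts higher and 4.42% lower. SWEET9 (LOC103857843) was listed at 11858 in lateral nectaries, against 1367 in median ones (log2 3.12) and CWINV4 (LOC103865521) at 127450 in lateral nectaries and 40741 in median ones (log2 1.65). BOP2, a boundary co-regulator needed for nectaries in Arabidopsis, was higher at the low values of 50 in lateral against 19 in median nectaries. The fourth higher transcript, the sucrose phosphate synthase SPS4F, stood at 52 in lateral nectaries, against 23 in median ones.

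The lower members were PIN6, MYB57, a JMT copy and a sucrose phosphate synthase copy matched to SPS3F. MYB57 (LOC103870993), a partner of MYB21 in Arabidopsis, was listed at 34 in lateral nectaries and 622 in median ones (log2 −4.15), and the MYB57-like transcript LOC103858909 at 8 in lateral against 256 in median nectaries. The third JMT copy (LOC103829478) was listed at 2451 in lateral nectaries, against 5968 in median ones (log2 −1.28), while the second (LOC103835835) was at 9085 in lateral nectaries and 6339 in median ones. SPS3F (LOC103844199) stood at 1098 in lateral against 3040 in median nectaries. The auxin response factors ARF6 and ARF8, which promote floral maturation in Arabidopsis, stayed within 2-fold in all 3 transcripts, at log2 differences from −0.39 to 0.24.

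Sugar transporters and sucrose-cleaving enzymes were more often higher in lateral nectaries, with 9 of 22 higher (40.9%, against 7.92% of all transcripts). The list had 3 lower (13.6%, against 4.42%) and a median difference of 0.62. Sucrose synthase SUS1, which cleaves sucrose inside cells, had both copies higher. LOC103845641 was listed at 18364 in lateral nectaries, against 6105 in median ones, and LOC103856465 at 5989 in lateral nectaries and 2462 in median ones. SWEET5, another sugar transporter of the SWEET family, also had both copies higher, at 1165 and 508 in lateral nectaries and 196 and 87 in median nectaries. The hexose carriers STP1 and STP7 were listed at 427 and 444 in lateral nectaries and 102 and 181 in median nectaries. The cell wall invertase CWINV3, at 2156 in lateral against 1592 in median nectaries, and the cytosolic invertases CINV1 and CINV2, with log2 differences of 0.16 and 0.51, lay within 2-fold. Of the 3 lower members only SWEET1 had a value above 4 in either group.

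Starch enzymes mostly lay within 2-fold. Starch synthesis had 1 of 10 transcripts higher (10%, against 7.92% of all) and 2 lower (20%, against 4.42%), with a median of −0.19. Starch breakdown had none of 15 higher and 2 lower (13.3%, against 4.42%), with a median of −0.30. Of its differences 11 were below 0, against 6864 of all 14390. The ADP-glucose pyrophosphorylase subunit APL2 was listed at 628 in lateral nectaries, against 248 in median ones, while APL1 stood at 31 in lateral nectaries and 85 in median ones. The branching enzyme SBE2.1 was listed at 242 in lateral against 532 in median nectaries. The plastid beta-amylase BAM1 was listed at 1628 in lateral nectaries, against 4170 in median ones (log2 −1.36), and the glucanotransferase DPE2 at 583 in lateral nectaries and 1194 in median ones (log2 −1.03, or −0.94 with both columns scaled to the same total).

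Phloem markers were the list with the highest median difference among those with at least 4 transcripts, 2.40, with 5 of 9 transcripts (55.6%) higher in lateral nectaries, against 7.92% of all, and none lower. PP2-A1, a phloem lectin, had copies at 979 (LOC103857760) and 127 (LOC103834133) in lateral nectaries, against 28 and 7 in median nectaries. NAKR1, a metal-binding protein of companion cells, had copies at 133 and 34 in lateral nectaries, against 4 and 1 in median nectaries. SUC2, the sucrose loader of companion cells, stood at 57 in lateral against 10 in median nectaries. In leaf the main PP2-A1 copy was listed at 2158 and SUC2 at 1297.

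The other phloem members lay within 2-fold. The sieve plate callose synthase CALS7 was listed at 877 in lateral nectaries, against 466 in median ones, and OPS, a protein of early phloem, at 1111 in lateral nectaries and 742 in median ones. The proton pump AHA3 of companion cells had matching transcripts at 1171 and 18842 in lateral nectaries and at 1482 and 37519 in median nectaries, and the product name of the more abundant one is ATPase 1, another pump of that family. Values of a pooled tissue cannot tell apart more cells of a type from more RNA per cell. Only 6 of the 18 phloem loci listed were measured, and none of 15 xylem and procambium loci was, so xylem was not analysed here.

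The median of the phloem list depends on which copies are counted. It was 1.65 with the most abundant copy per locus alone and 3.199 without the copy named ATPase 1. Markers of other tissues were measured by few transcripts. The 4 pollen marker transcripts, none of them at 0, summed to 600 in lateral against 1123 in median nectaries, and 1 of them, the calcium pump ACA9, was lower in lateral nectaries, at 250 against 742 in median ones. The tapetum marker LAP5 stood at 7 in lateral nectaries, against 1 in median ones, with 1 of 15 loci measured, and the guard cell channel KAT1 at 716 in lateral nectaries and 461 in median ones, with 1 of 15 loci measured. The part of pollen in the differences was not tested.

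Of 25 auxin transcripts 9 (36%, against 7.92% of all transcripts) were higher in lateral nectaries and 3 (12%, against 4.42%) were lower, with a median difference of 0.36. The higher ones included the response repressors IAA17, with copies at 220 and 62 in lateral nectaries against 20 and 6 in median nectaries, and IAA19, at 409 in lateral against 103 in median nectaries. The conjugating enzyme GH3.2 was listed at 90 in lateral nectaries, against 5 in median ones (log2 3.92) and GH3.6 at 93 in lateral nectaries and 35 in median ones. TAR2, an enzyme of auxin synthesis, was listed at 109 in lateral against 13 in median nectaries, and the response factor ARF4 at 1215 in lateral nectaries, against 232 in median ones.

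The auxin carriers went both ways. PIN3, an efflux carrier, had copies at 209 and 52 in lateral nectaries against 41 and 10 in median nectaries, opposite to PIN6. PID, the kinase that sets the polarity of PIN proteins in Arabidopsis, stood at 66 in lateral nectaries and 431 in median ones (log2 −2.69). The influx carrier LAX3 was listed at 362 in lateral against 890 in median nectaries (log2 −1.30). The receptor TIR1, the carrier AUX1 and the factors ARF3, ARF5 and ARF7 lay within 2-fold, with log2 differences from −0.09 to 0.54.

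**Figure D3:**
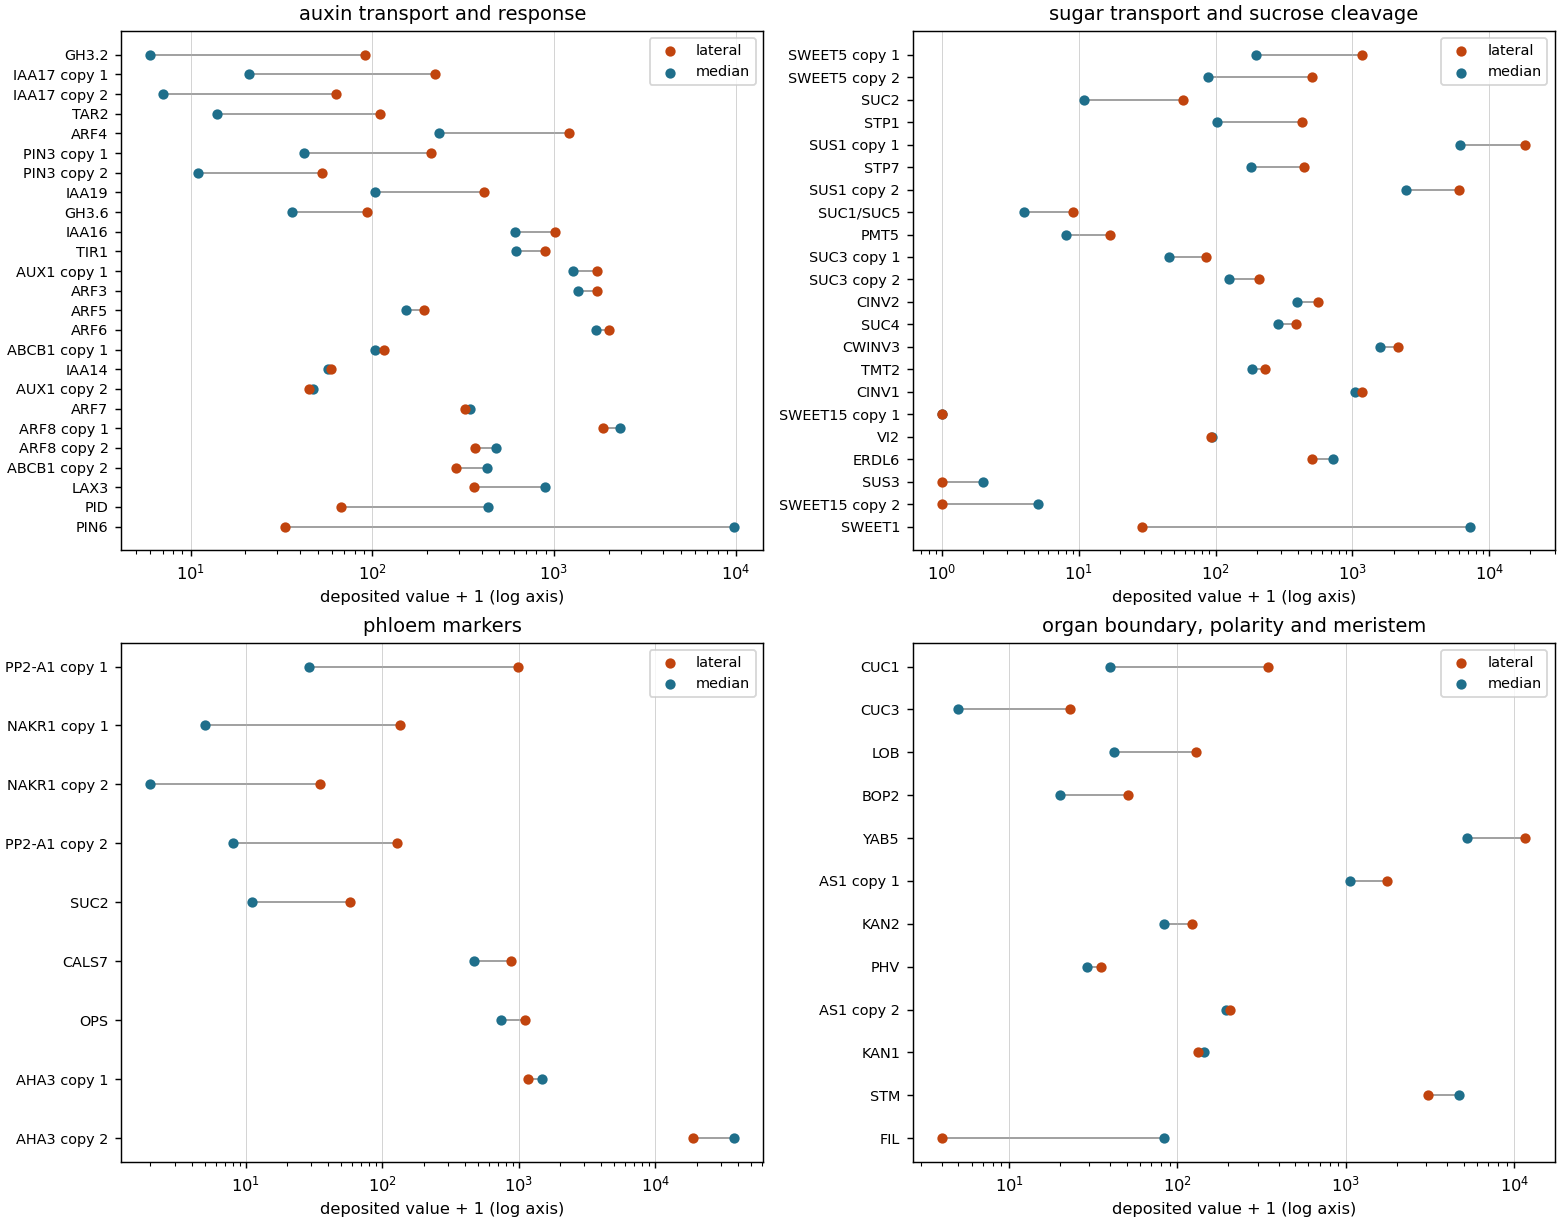
Deposited value plus 1 (log axis) of every measured transcript of 4 gene lists in lateral and median pre-secretory nectaries, 1 value per group, sorted by the difference. In the auxin panel PIN6 runs opposite to PIN3, IAA17 and GH3.2, in the sugar panel SWEET1 runs opposite to SWEET5 and SUS1, and in the boundary panel FIL runs opposite to CUC1.

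As the member plot shows, the organ boundary, polarity and meristem list had 5 of 12 transcripts (41.7%, against 7.92% of all) higher in lateral nectaries, 1 lower (8.33%, against 4.42%) and a median difference of 0.64. CUC1, a boundary NAC factor, was listed at 345 in lateral nectaries, against 39 in median ones (log2 3.11), its relative CUC3 at 22 in lateral nectaries and 4 in median ones, and LATERAL ORGAN BOUNDARIES at 128 in lateral against 41 in median nectaries. YAB5, a YABBY factor of leaf and floral organ polarity, stood at 11648 in lateral nectaries, against 5233 in median ones. FIL, another YABBY factor, was the lower member, at 3 in lateral nectaries and 82 in median ones (log2 −4.38). The meristem gene STM was listed at 3067 in lateral against 4694 in median nectaries, within 2-fold.

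Floral organ identity transcripts mostly lay within 2-fold, with 1 of 14 higher (7.14%, against 7.92% of all) and 2 lower (14.3%, against 4.42%). SHP2, a carpel MADS factor, was listed at 10172 in lateral nectaries, against 11434 in median ones, and SEP1 at 5720 in lateral nectaries and 5539 in median ones. FUL, named AGL8 homolog, was the higher member, at 161 in lateral against 23 in median nectaries. A copy of AGAMOUS (LOC103861026) stood at 1338 in lateral nectaries, against 2701 in median ones (log2 −1.01, or −0.92 with both columns scaled to the same total), and SEP3 at 42 in lateral nectaries and 91 in median ones, a difference of −1.10 that was −0.96 with a pseudocount of 10. The more abundant AGAMOUS copy (LOC103856965) lay within 2-fold, at 3262 in lateral against 3624 in median nectaries. The median difference of −0.03 becomes 0.07 with both columns scaled to the same total, so it has no settled sign. Of 3 carpel and ovule marker transcripts, both copies of the homeodomain gene RPL were higher, at 2541 and 202 in lateral nectaries against 520 and 55 in median nectaries, and ALC, a bHLH factor of fruit opening, was lower, at 743 in lateral against 1754 in median nectaries.

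Jasmonate transcripts were mostly within 2-fold, 21 of 25, with 3 higher (12%, against 7.92% of all), 1 lower (4%, against 4.42%) and a median of 0.27. The higher ones were the synthesis enzyme AOC4, at 342 in lateral nectaries, against 147 in median ones, the repressor JAZ1, at 1210 in lateral nectaries and 538 in median ones, and a copy of the factor MYC3, at 177 in lateral against 85 in median nectaries. The other MYC3 copy lay within 2-fold, at 360 in lateral nectaries, against 314 in median ones. LOX2, the plastid lipoxygenase at the start of the pathway, was listed at 38280 in lateral nectaries, against 42550 in median ones. Gibberellin transcripts had 1 of 9 higher and none lower, the higher one at 1 in lateral nectaries and 0 in median nectaries.

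Photosynthesis and plastid transcripts leaned toward median nectaries, mostly within 2-fold. Of 77 photosynthesis transcripts 1 was higher and 5 were lower, where 7.92% of all transcripts were higher and 4.42% lower. In this list 68 had a negative difference and 9 a positive one, with a median of −0.32. Of all 14390 transcripts, 6864 had a negative difference and 7181 a positive one. These values for all transcripts also apply to the ribosomal proteins below. The Rubisco small subunit RBCS1B was listed at 24107 in lateral nectaries and 51201 in median ones (log2 −1.09), ferredoxin-NADP reductase FNR2 at 1241 in lateral against 3318 in median nectaries, and a phosphoribulokinase PRK copy (LOC103868914) at 467 in lateral nectaries, against 1008 in median ones. The more abundant PRK copy (LOC103840194) lay within 2-fold, at 1007 in lateral nectaries and 1876 in median ones (log2 −0.90). The higher member was a beta carbonic anhydrase, CA2, at 6739 in lateral nectaries and 1249 in median ones. Chloroplast and mitochondrial ribosomal proteins had 68 of 76 differences below 0 and a median of −0.47, with 1 higher and 1 lower. Cytosolic ribosomal proteins had 117 of 254 above 0 and a median of −0.01 (0.08 with both columns scaled to the same total), 2 higher and 2 lower. The photosynthesis and organelle medians stayed below 0 at the same total, at −0.23 and −0.38.

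Cuticle, wax and epidermis transcripts had 16 of 20 differences below 0, against 6864 of all 14390, and a median of −0.46. Only 1 member passed 2-fold. It was higher (5%, against 7.92% of all transcripts), and none was lower, against 4.42% of all. The wax synthesis gene CER1 stood at 3639 in lateral against 6043 in median nectaries, and the exporter ABCG11 had copies at 665 and 892 in lateral nectaries and 1311 and 1500 in median nectaries. SHN1 (named WIN1-like, LOC103842907), an ethylene-responsive-type factor that promotes cuticle formation in Arabidopsis, went the other way, at 8666 in lateral nectaries, against 2841 in median ones (log2 1.61).

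**Figure D4:**
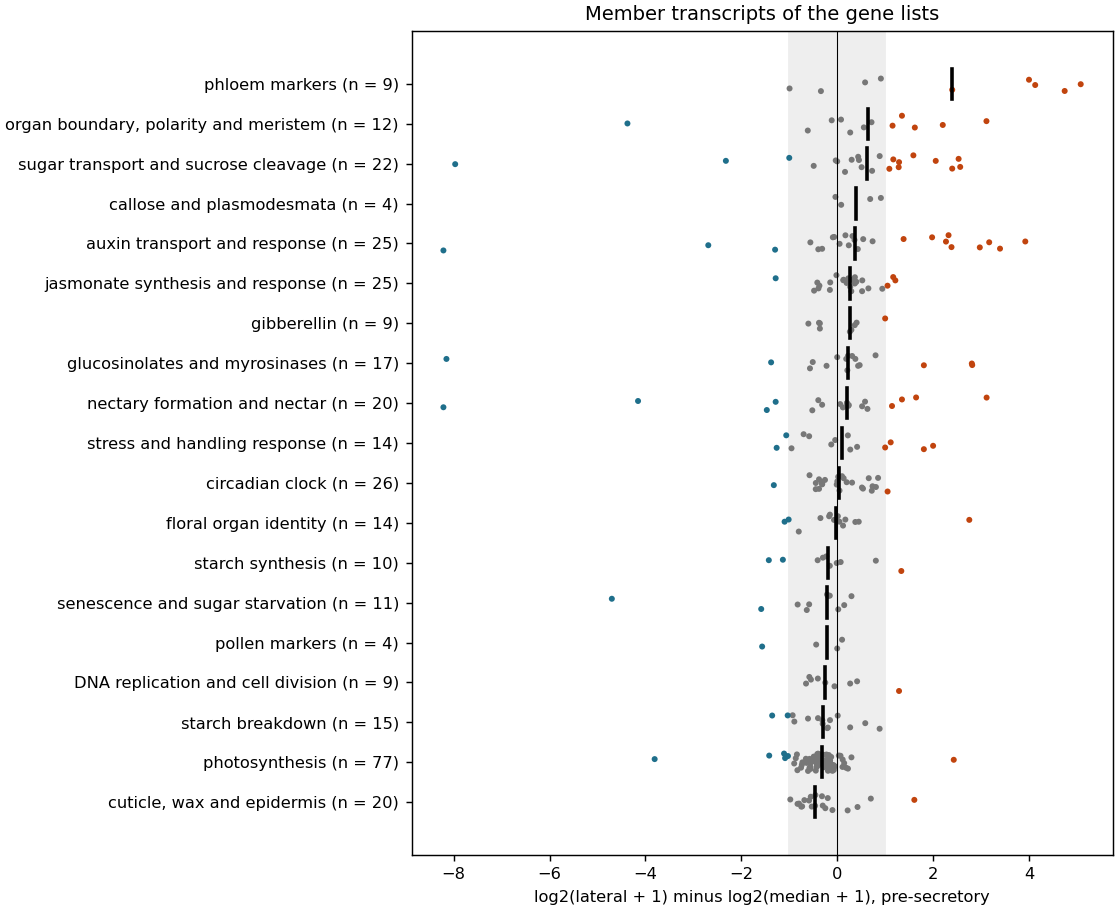
Difference log2(lateral + 1) minus log2(median + 1) in pre-secretory nectaries for each transcript of the gene lists with at least 4 measured transcripts (points), with the list median (black bar) and the range within 2-fold (grey band). Phloem markers have the highest median, 2.40, and cuticle, wax and epidermis the lowest, −0.46.

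The plot of list members shows that most lists were centred near 0 and differed in a few members. For the counts that follow, 7.92% of all transcripts were higher and 4.42% lower. Clock genes had 1 of 26 higher and 1 lower (median 0.03), the higher one REVEILLE 1 at 144 in lateral nectaries and 69 in median ones, a log2 difference of 1.05 that was 0.97 after quantile normalisation. DNA replication and cell division had 1 of 9 higher, the cyclin CYCD3;3 at 219 in lateral against 89 in median nectaries. Stress and handling genes had 4 of 14 higher and 2 lower, among them the zinc finger protein CZF1 at 55 in lateral nectaries, against 15 in median ones and the chaperone HSP101 at 123 in lateral nectaries and 258 in median ones. The other CZF1 copy went the other way at low values, 4 in lateral against 11 in median nectaries. The HSP101 difference of −1.06 was −0.97 at the same total. Senescence genes had none of 11 higher and 2 lower. Callose and plasmodesma genes had all 4 transcripts within 2-fold. In glucosinolate metabolism 3 of 17 were higher and 2 lower. These included the myrosinase-binding transcript LOC103832814, which matched 3 Arabidopsis loci, at 4787 in lateral against 679 in median nectaries, and the glycosyltransferase UGT74C1 at 24 in lateral nectaries, against 64 in median ones. The 1 listed terpene synthase, TPS03, was lower, with 5 in lateral nectaries and 17 in median ones.

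Among families of transcription factors grouped by product name, WRKY factors stood on the lateral side, with 12 of 33 (36.4%) higher, against 7.92% of all, and 1 lower. WRKY17, of a group that restrains defence responses in Arabidopsis, was listed at 277 in lateral against 34 in median nectaries (log2 2.99). MADS-box factors had 8 of 29 higher (27.6%) and 2 lower (6.90%), against 7.92% and 4.42% of all transcripts. AGL12, a MADS factor first described in roots, was listed at 631 in lateral nectaries, against 45 in median ones, and an AGL18 copy (LOC103841644) at 103 in lateral nectaries and 270 in median ones. The other AGL18 copy (LOC103863049) lay within 2-fold, at 235 in lateral against 307 in median nectaries. NAC factors had 7 of 40 higher (17.5%, against 7.92% of all) and 4 lower (10%, against 4.42%). NAC69-like stood at 175 in lateral against 16 in median nectaries, and the NAC2 transcript LOC103844673 at 219 in lateral nectaries, against 487 in median ones. MYB factors and ethylene-responsive factors had equal numbers each way, 6 and 6 of 34 and 6 and 6 of 38. MYB1R1 stood at 391 in lateral nectaries and 82 in median ones. The AP2-like factor At1g79700 (LOC103832437) was listed at 63 in lateral against 1603 in median nectaries (log2 −4.65).

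Myrosinase-binding and jacalin proteins, lectin-like partners of the glucosinolate-cleaving enzyme, had 5 of 10 higher in lateral nectaries, against 7.92% of all transcripts, none lower and a median difference of 1.14. LOC103868572 had 345 in lateral nectaries, against 23 in median ones. Among lipid-transfer proteins 3 of 19 were higher (15.8%, against 7.92% of all) and 5 lower (26.3%, against 4.42%). The 2 transcripts named DIR1, a lipid carrier of systemic immunity in Arabidopsis, were split. LOC103856989 stood at 23223 in lateral nectaries and 3680 in median ones (log2 2.66), and LOC103844982 at 47 in lateral against 155 in median nectaries. The 5 germin-like transcripts were split too, with 1 higher and 2 lower. Germin-like protein 1-11 (LOC103850135) was listed at 1029 in lateral nectaries, against 97 in median ones, opposite to germin-like T3.

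Cell wall, membrane and metabolic families held members far apart in both directions. The shares below stand against 7.92% of all transcripts higher and 4.42% lower. Cytochrome P450 transcripts had 12 of 55 higher and 10 lower, with CYP81D1, of a defence-related subfamily, at 577 in lateral nectaries and 37 in median ones and CYP72A13-like at 36 in lateral against 406 in median nectaries. Pectin-modifying enzymes had 5 of 48 each way (10.4%). A pectinesterase (LOC103873080) had 961 in lateral nectaries, against 191 in median ones. Aquaporins had 4 of 24 higher (16.7%) and 3 lower (12.5%). PIP1-5 stood at 257 in lateral nectaries and 20 in median ones, and NIP1-2 at 61 in lateral against 282 in median nectaries. GDSL lipases had 3 of 24 each way (12.5%), with LOC103832643 at 2195 in lateral nectaries, against 242 in median ones, opposite to the pair named above. Xyloglucan endotransglucosylases had 2 of 14 higher (14.3%) and 3 lower (21.4%). LOC103868088 stood at 820 in lateral nectaries and 346 in median ones, and LOC103874753 at 21 in lateral against 194 in median nectaries. Expansins had 2 of 10 (20%) and cellulose synthases 2 of 9 (22.2%) higher, and neither had a lower member.

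Nitrate, peptide and amino acid transporters had 12 of 54 higher (22.2%) and 10 lower (18.5%), against 7.92% and 4.42% of all transcripts. The amino acid permease AAP2, which works in phloem in Arabidopsis, stood at 284 in lateral nectaries, against 9 in median ones (log2 4.83), in contrast to NPF7.3. Proteases of the subtilisin and cysteine classes had 4 of 27 higher (14.8%) and 3 lower (11.1%). The SBT5.3 transcript LOC103860293 stood at 132 in lateral nectaries and 748 in median ones. Calcium sensors and calcium-dependent kinases had 14 of 87 higher and 6 lower, heat shock proteins 8 of 52 and 2, and glutathione S-transferases 5 of 33 and 2. The higher shares in these 3 families were 16.1%, 15.4% and 15.2%, against 7.92% of all transcripts, and the lower shares 6.90%, 3.85% and 6.06%, against 4.42%. Tubulins and kinesins had 4 of 46 higher (8.70%, against 7.92% of all) and 1 lower (2.17%, against 4.42%), and peroxidases 1 of 7 lower (14.3%). Families with few calls were vesicle trafficking, with 1 of 94 higher and none lower, and histones, with 2 of 51 higher and none lower. One of those 2, LOC103843154, is named histone H3.v1-like but matched to a vacuolar calcium-binding protein.

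Leaf values were compared between the differing transcripts and the rest. The first share below is measured against the higher nectary value, which the calls also use. It is therefore partly fixed by the selection, and no conclusion is drawn from it. Among transcripts with at least 100 in the higher group, the leaf value reached at least 50% of that group's value in 34.1% of the 563 higher and 38.4% of the 359 lower transcripts, against 73.2% of the 8706 within 2-fold. Leaf was under 10 in 14.7% of the higher ones, LSH4 and TWIN SISTER of FT among them, in 8.91% of the lower ones and in 1.16% of those within 2-fold. Copies of a gene often differed together on the lateral side. Of 92 Arabidopsis loci with at least 2 matching genes and 1 called higher, 45 (48.9%) had 2 called higher and 2 had a copy called lower. On the median side 11 of 55 such loci (20.0%) had 2 called lower and 2 had a copy called higher. Counted per transcript, 7.92% of all were called higher and 4.42% lower. The loci were picked because 1 copy was called, and whether copies differ together was not tested. Copies of near-identical sequence may share reads, and Brassica juncea copies that share a Brassica rapa match cannot be told apart here.

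The lateral against median difference at the later stages comes from other libraries, so it shows whether the pre-secretory difference recurs. Of the 1140 transcripts higher before secretion, 785 (68.9%) were also higher at the secretory stage, where 14.7% of all transcripts were, and these made up 37.0% of the 2120 higher at that stage. At the post-secretory stage 473 (41.5%) were higher, where 12.6% of all were, and 407 were higher at all 3 stages. Of the 636 lower transcripts, 373 (58.6%) were lower at the secretory stage, where 13.0% of all were, and 311 (48.9%) at the post-secretory stage, where 9.41% were, with 228 lower at all 3. They made up 20.0% of the 1867 lower at the secretory stage and 23.0% of the 1354 lower at the post-secretory stage. The lateral post-secretory column lacks the normalisation mark that the other 6 columns carry, so statements on that stage assume that it holds the same unit.

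Across the 14390 transcripts the pre-secretory difference had a Pearson r of 0.596 with the secretory one and 0.379 with the post-secretory one, and Spearman coefficients of 0.466 and 0.192. These describe transcripts, which are not independent of each other. The 3 stages share the species and the dissection. They are assumed to share the normalisation, for which the lateral post-secretory column carries no mark.

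Transcripts that differed strongly at every stage included 2 regulators and a receptor kinase on the lateral side and an aminotransferase and the ESP copy on the median side. DOF5.1-like (LOC103855469), a zinc finger factor, was listed at 372, 506 and 293 in lateral nectaries at the 3 stages in their order, against 13, 19 and 13 in median nectaries. OFP7 (LOC103828386), an OVATE family repressor, had 879, 3495 and 1015 in lateral nectaries against 63, 142 and 56 in median nectaries. An ankyrin repeat protein (LOC103871523) stood at 509, 1706 and 241 in lateral nectaries against 21, 29 and 15 in median nectaries. The BARELY ANY MERISTEM 3 match (LOC103861192) and PP2-A1 were also higher at all 3 stages. The PP2-A1 copy LOC103834133 had log2 differences of 4.00, 4.71 and 4.15, and the more abundant copy LOC103857760 5.08, 4.33 and 2.18. On the median side the aminotransferase LOC103832898 was listed at 39, 96 and 6 in lateral nectaries against 11727, 22667 and 3449 in median nectaries. The ESP copy LOC103871086 had 3, 1 and 6 in lateral nectaries against 1135, 8340 and 1358 in median nectaries, and germin-like T3 (LOC103830683) at 3472, 10797 and 139 in lateral nectaries against 339516, 447820 and 41360 in median ones.

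**Figure D5:**
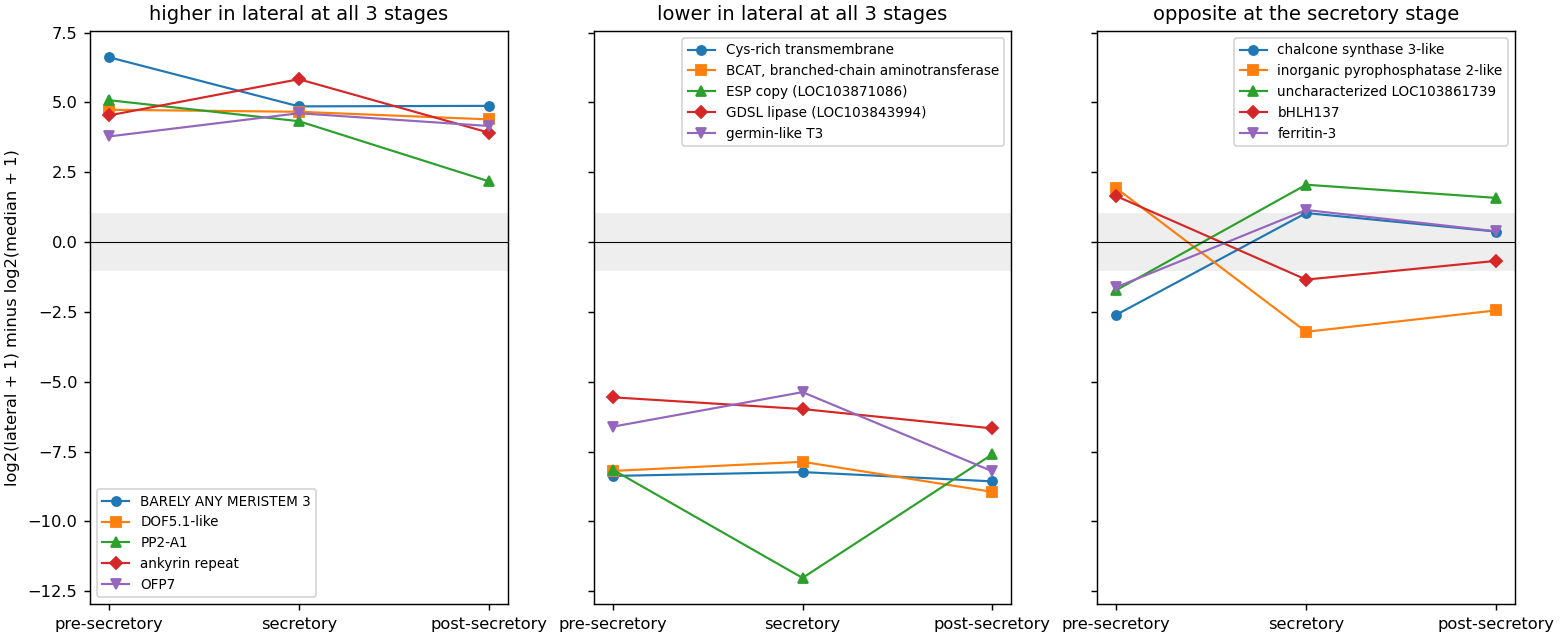
Difference log2(lateral + 1) minus log2(median + 1) at the 3 stages for 5 genes in each direction, ranked by the smallest of the 3 differences of any copy and shown by the most abundant differing copy, and for 5 of the 21 transcripts that were opposite at the secretory stage, with the range within 2-fold in grey. The ESP copy reaches −12.0 at the secretory stage, and inorganic pyrophosphatase 2-like passes from 1.92 to −3.21.

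Genes named above kept, narrowed or lost their difference later. MYB57 (LOC103870993) stood at 5559 in lateral against 6976 in median nectaries at the secretory stage, within 2-fold. The MYB57-like transcript LOC103858909 stayed lower in lateral nectaries. It stood at 685 against 1840 in median ones at the secretory stage and at 21 against 401 afterwards. PIN6 (LOC103832163) was still lower in lateral nectaries at the secretory stage, at 1450 against 26085 in median ones. SWEET9 (LOC103857843) was higher in lateral nectaries at the secretory stage too, at 147160 against 23865 in median ones, and within 2-fold at the post-secretory stage, at 6606 in lateral against 8959 in median nectaries. CWINV4 (LOC103865521) was within 2-fold at the secretory stage, at 147338 in lateral nectaries, against 77852 in median ones, and lower in lateral nectaries afterwards, at 730 against 7021 in median ones. LSH4 (LOC103828755) was listed at 2056 in lateral nectaries and 92 in median ones at the secretory stage and at 1999 in lateral nectaries and 362 in median ones afterwards. Phloem markers kept 5 of 9 transcripts higher at both later stages, with medians of 3.13 and 2.18. Of all transcripts 14.7% and 12.6% were higher at those stages. No phloem marker was lower at the secretory stage, and 1 was at the post-secretory stage.

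The plot of differences by stage also holds the transcripts that were opposite at the secretory stage. With at least 100 in 1 group at both stages, 21 transcripts passed 2-fold in opposite directions, 7 of them higher in lateral nectaries before secretion and 14 lower. Chalcone synthase 3-like (LOC103850907), an enzyme at the start of flavonoid synthesis, had 285 in lateral against 1737 in median nectaries before secretion and 4246 in lateral against 2066 in median nectaries at the secretory stage. Ferritin-3 (LOC103830031), an iron store of plastids, stood at 2911 in lateral nectaries, against 8922 in median ones before secretion and at 3112 in lateral nectaries, against 1404 in median ones at the secretory stage.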

How the data were processed

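Per the labels, TruSeq RNA v2 libraries from lateral and median (medial) nectaries and leaf were sequenced with 50 bp paired-end reads, and at least 162 M reads are stated for the pool of 21 libraries. Per the file headers, the deposited score of each group except the lateral post-secretory one is marked UQN. This abbreviation has no expansion there and was read here as upper-quartile normalised. The authors rounded the scores to whole numbers, as the values show, and gave 1 score per group. The aligner, counting method, build and the way 3 libraries became 1 score are missing from the labels and headers. Because the columns hold no counts per library, count tests could not be run.

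Transcripts with a score of at least 1 in at least 3 of 7 groups were kept, and the lateral minus median difference of log2(score + 1) was taken (pseudocount 1, Python 3.11.15, numpy 2.4.6, pandas 2.3.3). A difference of 2-fold or more was called. Grouping used 24 lists of Arabidopsis loci and 26 families of product names. Arabidopsis matches were present for 9605 transcripts, and 280 matched over 1 locus. Named genes were the 15 genes with the largest differences each way with at least 100 in the higher group and a product name or described match, the 2 largest each way per list with at least 50, the largest each way per family with at least 100, 12 fixed nectary genes, the 5 each way that recurred with the largest smallest-stage difference, and the 5 with the largest difference before secretion among those that reversed. Genes were ranked by their most different copy, and the most abundant copy that met the rule was named. Genes outside these rules, given to complete a list or copy pair, were chosen after their values were seen. Members, lists and families were chosen with earlier results of these data known. Alternatives were both columns scaled to the same total, median centring, quantile normalisation, pseudocounts of 10 and 0.1, other filters and a 4-fold threshold.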

Additional observations from a re-analysis of the deposited data

Results flagged for a closer look

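In 21 transcripts the lateral minus median difference passed 2-fold one way before secretion and the other way at the secretory stage, with at least 100 in 1 group at both stages. Values are given for the 5 with the largest difference before secretion among those with a product name or a described Arabidopsis match. The difference between stages was not tested, since each group has 1 value. Chalcone synthase 3-like (LOC103850907) had log2 differences of −2.60 before secretion and 1.04 at the secretory stage. Inorganic pyrophosphatase 2-like (LOC103835945) had 1.92 and −3.21, from values of 390 in lateral against 102 in median nectaries before secretion and 78 in lateral against 732 in median nectaries at the secretory stage. The uncharacterized transcript LOC103861739 had −1.72 and 2.05, from values of 53 in lateral nectaries, against 177 in median ones before secretion and 6139 in lateral against 1479 in median nectaries at the secretory stage. The transcription factor bHLH137 (LOC103857259) had 1.64 and −1.34, and ferritin-3 (LOC103830031) had −1.62 and 1.15.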

How the results depend on the processing

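No paired analysis was possible because the columns carry no replicate numbers and hold 1 value per group, and no replicate could be left out. With at least 50 in the higher group, 721 transcripts were higher in lateral nectaries in place of 1140, and at 4-fold 433 were higher and 167 lower. The other filters, scalings and pseudocounts gave from 809 to 1230 higher and from 434 to 684 lower. The phloem median of 2.40 was 1.74 with a pseudocount of 10, 1.65 with the most abundant copy per locus, and, in alternatives chosen after seeing the data, 4.06 over transcripts matched to 1 locus alone and 3.199 without doubtful matches. The carpel and ovule median was 0.52 with the most abundant copy per locus. Scaling both columns to the same total moved the median of all transcripts to 0.09. Of 117 named transcripts, 112 kept their side of 2-fold under every scaling and pseudocount. The exceptions were DPE2, SEP3, the AGAMOUS copy, REVEILLE 1 and HSP101, all close to 2-fold. Most named transcripts were chosen for the size of their difference, so their stability was largely fixed by that choice. Median centring started from a median of 0.0000 and was no separate check. The missing depth per library limits all values under about 10.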

Other observations

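Some gene families were looked at after their values had been seen, so their counts describe the table and were not chosen independently of it. Dof factors, plant zinc finger regulators that include several expressed in vascular tissue in Arabidopsis, had 16 of 24 transcripts higher in lateral nectaries, none lower and a median difference of 1.56, against 7.92% of all transcripts higher. DOF1.1-like (LOC103836424) was listed at 353 in lateral nectaries and 27 in median ones, DOF1.8 (LOC103838178) at 984 in lateral against 212 in median nectaries, DOF2.5-like (LOC103858223) at 622 in lateral nectaries, against 118 in median ones, and DOF1.5-like (LOC103828979) at 573 in lateral nectaries and 95 in median ones. The cyclic Dof factors CDF2 and CDF3, which regulate flowering time, were level before secretion, at 139 and 426 in lateral nectaries against 140 and 412 in median nectaries. At the secretory stage 17 of the 24 Dof transcripts were higher in lateral nectaries and none was lower. Of all transcripts 14.7% were higher and 13.0% lower at that stage.

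Amino acid permeases had all 9 transcripts on the lateral side, 6 of them past 2-fold, where 7.92% of all transcripts were, with a median difference of 2.77. The 9 transcripts include both variants of the AAP4 gene LOC103855067. These were listed at 101 and 33 in lateral nectaries, against 10 and 4 in median nectaries. The other AAP4 gene (LOC103873802) stood at 70 in lateral nectaries, against 8 in median ones, and AAP3 (LOC103832187) at 33 in lateral against 0 in median nectaries. AAP1 (LOC103828954) stood at 2426 in lateral nectaries, against 1438 in median ones, within 2-fold. Nitrate and peptide transporters of the NRT1/PTR family leaned the other way, with 4 of 26 higher and 9 lower, against 7.92% and 4.42% of all transcripts. Both copies of NPF6.3, a nitrate transporter and sensor in Arabidopsis, were lower, at 2024 and 1110 in lateral nectaries against 4560 and 3796 in median nectaries. NPF5.6 (LOC103857744) was higher, at 107 in lateral nectaries and 5 in median ones.

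All 4 CLE peptide transcripts were higher in lateral nectaries, where 7.92% of all transcripts were. CLE41-like (LOC103860255), whose Arabidopsis match is a phloem-made signal to the vascular stem cells, was listed at 292 in lateral against 19 in median nectaries. Of 23 leucine-rich repeat receptor kinases 12 were higher and 1 was lower, against 7.92% and 4.42% of all transcripts. CLAVATA1 (LOC103832028), a CLE receptor in Arabidopsis, had 109 in lateral nectaries, against 11 in median ones. The lower one (LOC103874010), named BAM1 and unrelated to the beta-amylase of that name, stood at 561 in lateral nectaries and 1723 in median ones. Another receptor kinase transcript named BAM1 (LOC103840056), with a different Arabidopsis match, was higher, at 467 in lateral against 226 in median nectaries.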
